A study of Homo sapiens with 13 samples.

Results

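Resveratrol (RES) was compared with vehicle in hFOB 1.19 cells that were kept without serum. The comparison rests on 5 of the 12 RNA-seq libraries analysed here. These are 3 libraries labelled RES and 2 labelled as the negative control, chosen by their labels alone and not by any measured value. hFOB 1.19 is a single line of human fetal osteoblasts, immortalised with a temperature-sensitive SV40 large T antigen, so every library carries that oncogene and none represents a primary osteoblast. The negative control received no fetal bovine serum (FBS) and, per the study's methods, the solvent DMSO. The RES cells received no serum and resveratrol at a labelled 1 mcg/ml. Both groups had been starved of serum before treatment. Peonidin-3-glucoside (POG, 3 libraries) and a compound the labels call DEG (2 libraries) were given at the same labelled mass concentration and serve here only as direct comparisons. The labels' treatment text lists delphinidin-3-glucoside, but no label ties that name to the abbreviation DEG. The positive control (2 libraries) grew with 10% FBS. Another library labelled DEG was not analysed here. Wells were treated in parallel and nothing in the labels says that replicates came from separate cultures, so p-values measure the spread between these libraries, which may be technical.

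Resveratrol is a plant stilbene found in grapes and berries, and it is widely studied as an antioxidant and an activator of sirtuin deacetylases. NRF2, encoded by NFE2L2, is the transcription factor that switches on genes for glutathione synthesis, thioredoxin reduction, iron storage and NADPH supply when cells are exposed to electrophiles or oxidants, and KEAP1 holds it in check. Interferon-stimulated genes encode antiviral and antigen-presenting proteins and are driven by transcription factors such as STAT2 and IRF9 downstream of interferon receptors. Osteoblasts build bone matrix from type I and other collagens and steer bone-resorbing osteoclasts through secreted signals such as RANKL, encoded by TNFSF11, and its decoy receptor osteoprotegerin, encoded by TNFRSF11B.

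The 2 control libraries held 38959432 and 40043770 counted reads and the 3 RES libraries held 43968661 to 44181343. Mitochondrially encoded genes took 3.24% to 3.41% of reads in these 5 libraries. Counts differed between replicates by a chi-square of 2.37 to 2.66 per gene and between RES and control libraries by 8.72 to 9.71, so no pair of libraries agreed within sampling noise. RES replicate 2 held 618 genes with reads in no other library, against 210 to 307 in each of the others, but these added up to only 954 reads. Of 43836 genes in the table, 17092 passed the filter on low counts and held 99.967% of the reads. The osteoblast label was checked against 10 markers. COL1A1, COL1A2 and SPARC, which encode collagen I chains and osteonectin, were abundant in all 5 libraries, at 2845, 1347 and 1046 CPM on average in the control. CPM is the read count scaled to a common library size. POSTN and RUNX2 averaged 87.4 and 47.1 CPM in the control. SP7, IBSP and BGLAP were low, with at most 5 reads of SP7, at most 1 of IBSP and 19 to 72 of BGLAP in a library. ALPL, with 148 to 234 reads, and SPP1, with 62 to 95, were detected in every library. Of 6 lymphocyte markers 3 had no read in any of the 5 libraries, as had 3 of 7 adipocyte markers.

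Resveratrol moved many genes by small amounts. Of the 17092 genes tested, 1906 (11.2%) passed edgeR's exact test, where a call means a Benjamini-Hochberg FDR (false discovery rate) under 0.05 over all genes. RES was higher for 844 (4.94%) and lower for 1062 (6.21%). All log2 fold changes below are RES minus control unless another pair is named, and each error is the standard error of the fit. The median size of a called change was 0.208 on the log2 scale, with a median of 0.25 among the rises and -0.19 among the falls. Where the RES libraries all lay on one side of both controls and the level reached 5 CPM, 697 called genes rose and 1006 fell. Only 4 of the 1906 called genes had overlapping groups, so a lack of overlap in a called gene adds nothing to its call. Only 38 rises and 34 falls in called genes of at least 5 CPM exceeded 0.5, and 4 rises and 8 falls exceeded 0.75. Genes under 5 CPM were called less, at 3.39% against 15.2% above that level.

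**Figure D1:**
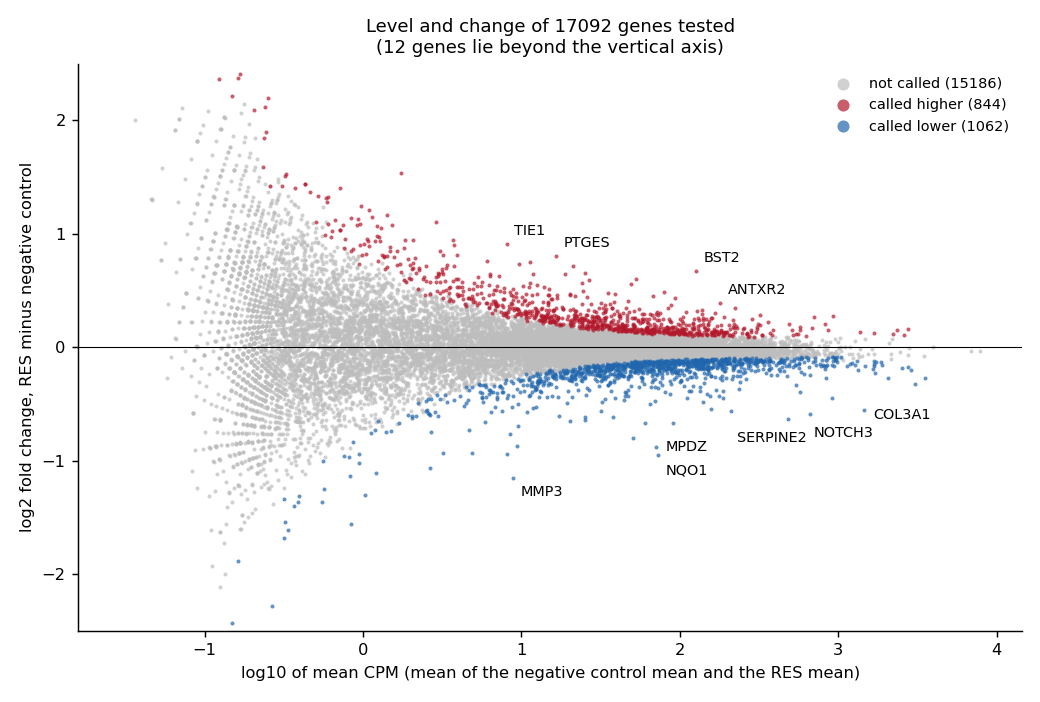
Each point is a gene, with the log10 of its mean CPM over both groups on the horizontal axis and its log2 fold change, RES minus negative control, on the vertical axis. Red marks the 844 genes called higher, blue the 1062 called lower and grey the rest, 12 genes lie beyond the vertical axis, and at high level most called genes sit close to 0 while NQO1, MPDZ, BST2, SERPINE2 and NOTCH3 stand clear.

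The count of calls leaned on the 2 control libraries. Leaving out negative control replicate 1 gave 905 calls and leaving out replicate 2 gave 954, but 1389 to 1462 without any single RES library. The balance of directions depended on scaling. Rises made up 44.3% of calls under the TMM scaling used here and 64.0% when plain library totals were used, a choice that shifts every gene by 0.027 on the log2 scale. Changes of that size in any gene or list below cannot be given a direction.

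Among called genes of at least 5 CPM, MMP3 and NQO1 had the deepest falls. MMP3 (chr11:102835801-102843609, hg38), the matrix metalloproteinase stromelysin, was at 11.9 and 12.6 CPM in the control and at 5.20, 5.57 and 5.74 CPM in RES. Its log2 fold change was -1.15 ± 0.103 (FDR 1.33e-26), and the gene overlaps WTAPP1 on the opposite strand. MMP1, the interstitial collagenase beside it, was at 10.46 and 11.01 CPM in the control and 7.20, 5.50 and 6.21 CPM in RES (-0.77 ± 0.120, FDR 2.09e-08). Both were low transcripts in every library.

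NQO1 (chr16:69706996-69726668), a quinone reductase and the textbook NRF2 target, was the fall with the smallest p. It was at 94.1 and 98.6 CPM in the control and at 49.9, 49.9 and 50.03 CPM in the RES libraries (-0.95 ± 0.0387, FDR 4.28e-112). The RES values were almost the same in the 3 libraries and lay far below both controls. MPDZ, a scaffold protein with many PDZ domains, fell from 91.0 and 92.9 CPM to 49.98, 47.3 and 52.7 CPM (-0.88 ± 0.0443, FDR 2.12e-77). SERPINB4, a protease inhibitor, fell by 0.94 and CCL7, a monocyte chemokine, by 0.94 as well. NTN1, the guidance cue netrin, fell by 0.87, ANGPTL4, a secreted inhibitor of lipoprotein lipase, by 0.80, HTR7, a serotonin receptor, by 0.73, and PIR, a nuclear iron-binding protein, by 0.70. The group of largest falls was completed by ITGA10, a collagen-binding integrin chain, and CEMIP, a hyaluronan-degrading protein. Both fell by 0.67.

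More abundant transcripts fell less but as clearly. SERPINE2 (chr2:223975045-224039318), a secreted inhibitor of thrombin and plasminogen activators, was at 579 and 590 CPM in the control and at 380, 376 and 375 CPM in RES (-0.63 ± 0.0260, FDR 4.91e-89). COL3A1 (chr2:188974373-189012746), the type III collagen chain, was at 1698 and 1754 CPM against 1166, 1173 and 1193 CPM (-0.55 ± 0.0234, FDR 2.12e-69). NOTCH3 (chr19:15159038-15200995), a Notch receptor, was at 788 and 804 CPM against 519, 538 and 533 CPM (-0.59 ± 0.0275, FDR 1.74e-66). In each of the 3 the groups were separated by many times their internal spread. ITGA11, the other collagen-binding integrin chain in this set, fell by 0.56 (FDR 6.68e-51).

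Among called genes of at least 5 CPM, TIE1, given below, and PTGES had the largest rises. PTGES (chr9:129738331-129753042), which makes prostaglandin E2 from the product of the cyclooxygenases, was at 12.4 and 11.8 CPM in the control and at 21.9, 20.5 and 21.1 CPM in RES (0.81 ± 0.0674, FDR 1.45e-28). BST2 (chr19:17402939-17405630), the tetherin that holds budding virus at the cell surface, was at 98.8 and 98.0 CPM against 156, 155 and 159 CPM (0.67 ± 0.0426, FDR 8.57e-47). It was the rise with the smallest p. BISPR, a long non-coding RNA next to BST2, rose by 0.76, and its span overlaps MVB12A on the same strand. PRUNE2 rose from 16.0 and 16.1 CPM to 27.3, 26.3 and 25.7 CPM (0.72 ± 0.0655, FDR 4.75e-25).

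Other large rises covered signalling and secreted proteins. ARHGDIB, an inhibitor of small GTPases, rose by 0.75, PDE4C, a cyclic AMP phosphodiesterase, by 0.73, and AREG, a ligand of the EGF receptor, by 0.65. LRRC17, a secreted leucine-rich repeat protein, rose by 0.65, LBHD1 by 0.64 and CYP11A1, the mitochondrial enzyme that starts steroid synthesis, by 0.63. FMN1, an actin nucleator, was at 0.65 but lost its call without negative control replicate 2 (FDR 0.0562). Other rises among the 6 with the smallest p were IGFBP6, an IGF-binding protein (0.61 ± 0.0498, FDR 9.79e-29), ABCE1, a ribosome-recycling factor (0.49 ± 0.0396, FDR 6.06e-28), and ANTXR2, a receptor for collagen VI and anthrax toxin (0.39 ± 0.0319, FDR 1.38e-24).

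TIE1, an endothelial receptor tyrosine kinase, was at 5.35 and 5.86 CPM in the control and at 11.2, 10.2 and 10.2 CPM in RES (0.91 ± 0.0990, FDR 8.19e-17). It is also among the 7 endothelial markers, of which 6 were tested and 3 rose, against 4.94% of all genes. TEK, the related angiopoietin receptor, rose by 0.41 (FDR 2.51e-11) and VWF, the clotting glycoprotein, by 0.94 (FDR 3.29e-06). PECAM1 (-0.11, FDR 0.823), KDR (0.55, FDR 0.363) and CLDN5 (0.11, FDR 0.998) did not pass the test. The defining gene CDH5 had 0 and 0 reads in the control and 4, 5 and 1 reads in RES. The summed endothelial level was 49.9 to 52.4 CPM in the control and 68.1 to 75.9 CPM in RES. Marker sums use CPM of plain library totals. That scale puts RES higher than TMM scaling does, by a median log2 of 0.027. Other marker lists also had a higher sum in each RES library than in either control. The epithelial one summed to 402 to 408 against 457 to 468 CPM, most of it KRT8 and KRT18. Of its 5 tested markers 3 were called higher. The chondrocyte one summed to 29.2 to 30.9 against 41.0 to 43.7 CPM. Of its 6 tested markers 2 were called higher, MATN3 and COL9A2. The share over all genes was 4.94%. Without negative control replicate 1 KRT18 lost its call (FDR 0.208), and without replicate 2 KRT19 did (FDR 0.2502). The macrophage and osteoclast markers summed to 14.9 to 15.1 CPM against 17.0 to 18.3 CPM. The adipocyte markers summed to 0.847 to 1.25 against 1.47 to 1.63 CPM, near the floor. Both sums were higher without overlap, but no member of either list was called. With 3 libraries against 2 and 8 marker lists, a lack of overlap in a sum is weak, and the sums were not tested. The skeletal muscle markers summed to 15.7 to 16.1 against 15.5 to 15.8 CPM with 1 called, a gap too near that shift to be given a direction. Osteoblast markers summed to 5315 to 5374 CPM in the control and 5057 to 5173 CPM in RES. The part of other cell types in the results was not tested, and in bulk RNA fewer cells of a type and less RNA per cell cannot be told apart.

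**Figure D2:**
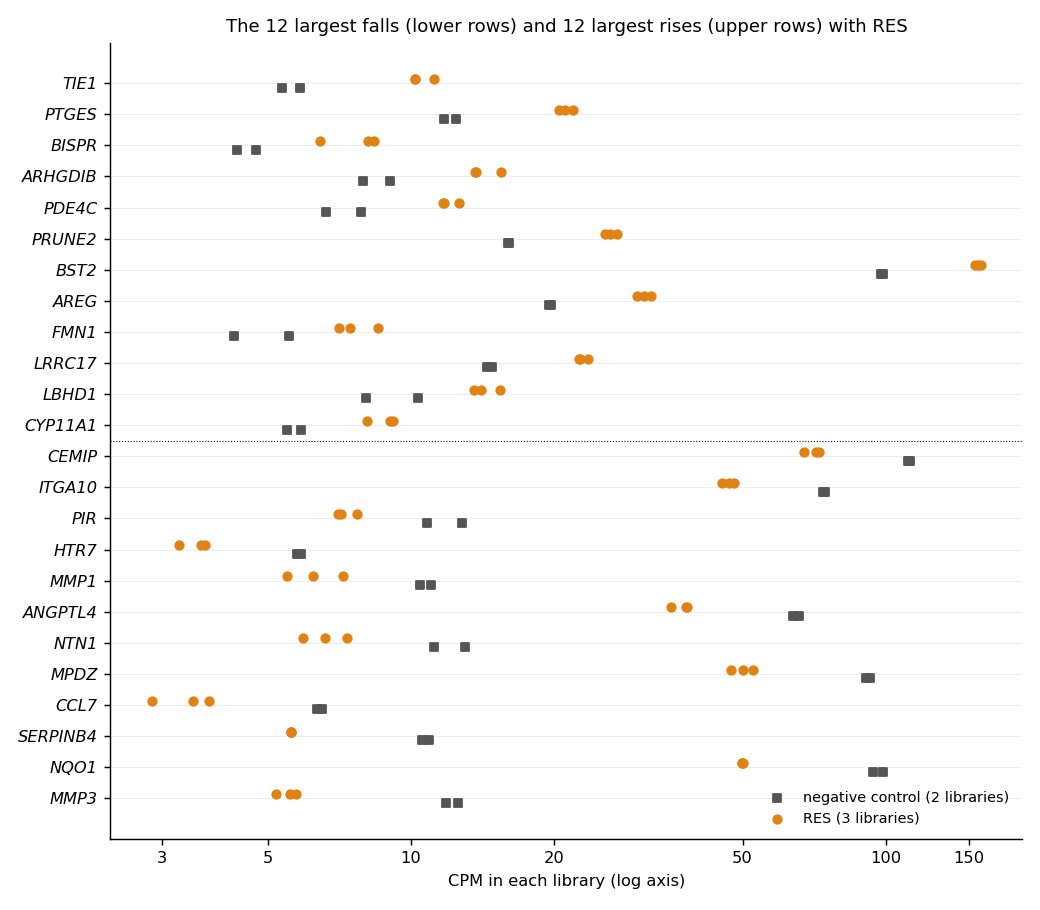
Level in CPM, on a log axis, in each RES library (orange circles) and each negative control library (grey squares) for the 12 largest rises in the upper rows and the 12 largest falls in the lower rows among called genes of at least 5 CPM. The groups do not overlap for any of these genes, which the choice of genes required.

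The rest of the response is ordered by 38 lists covering 913 distinct genes. The NRF2 targets and the interferon-stimulated genes had the highest shares of called members pointing in a single direction. Of 25 NRF2 targets 17 were lower in RES (68.0%, against 6.21% of all genes) and none was higher, with a median of -0.29. Of 31 tested interferon-stimulated genes 23 were higher (74.2%, against 4.94%) and 1 was lower, with a median of 0.23. The median over all genes was 0.0011. For every list count of RES against the control below, the share over all genes tested was 4.94% higher and 6.21% lower, or 11.2% called. For list counts of RES against POG it was 14.1% higher and 13.7% lower, and against DEG 10.8% and 10.3%. For list counts of POG against the control it was 5.93% higher and 8.57% lower, and for DEG 3.52% and 6.11%. Of the 48 list counts of 1 to 4 members given in the paragraphs on single lists, 33 moved by over 1.5 times when 1 library was left out, so such counts are weak. Where a lost call is given below with 1 omission, some of these calls were lost in other settings too.

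**Figure D3:**
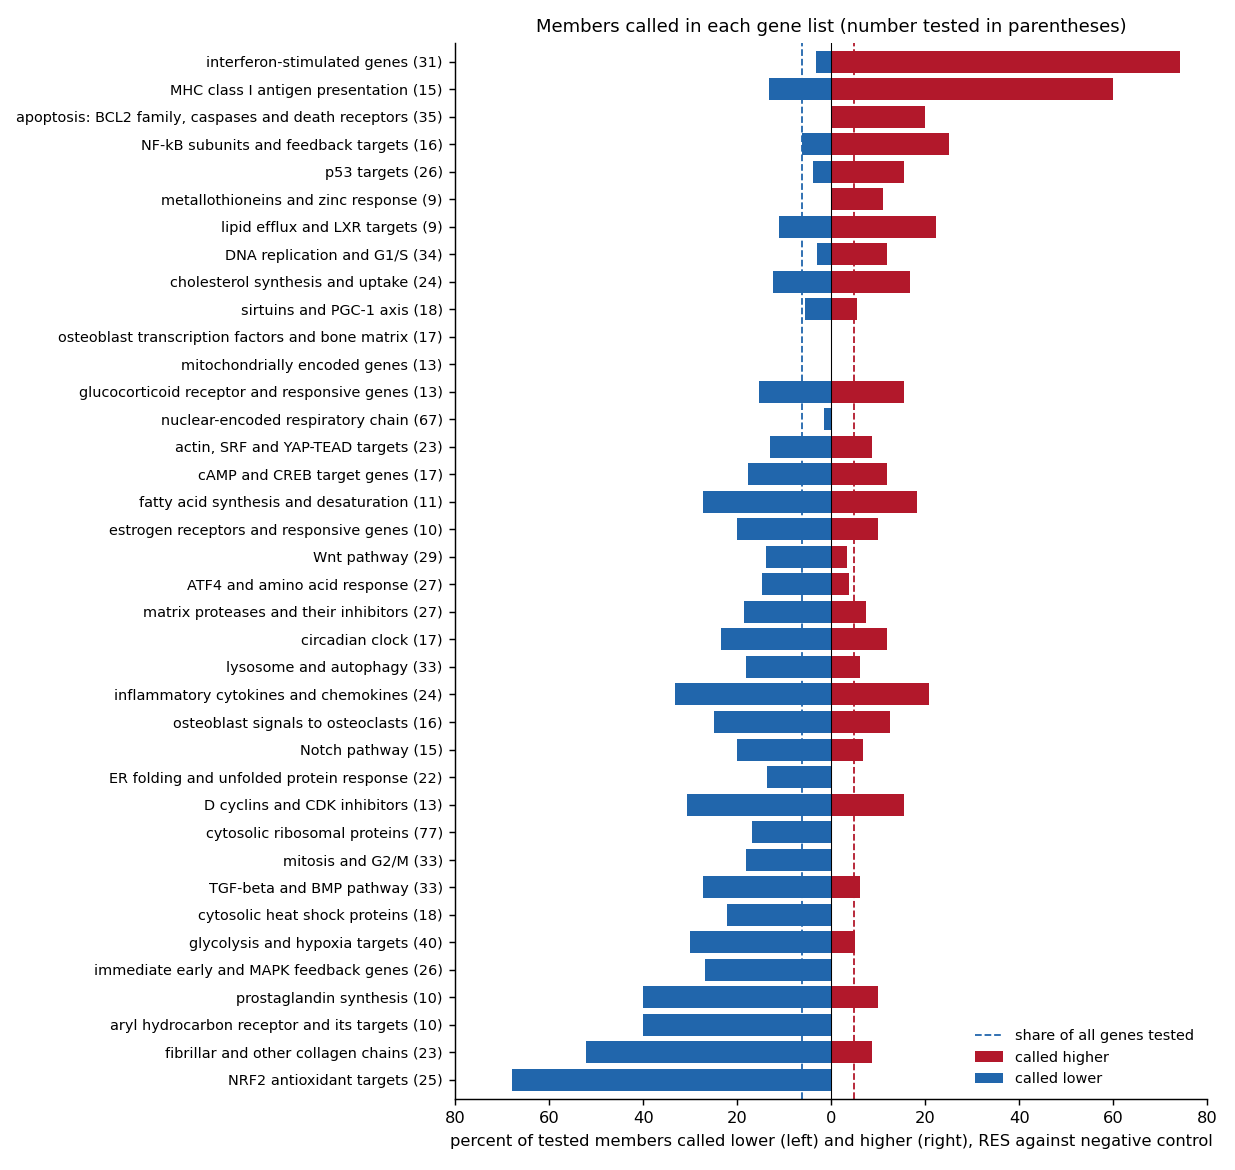
For each of the 38 gene lists, bars give the percent of tested members called higher (red, to the right) and lower (blue, to the left) in RES against the negative control, and dashed lines give the shares over all genes tested, 4.94% and 6.21%. NRF2 targets and collagens reach furthest to the left, with 17 of 25 and 12 of 23 members, and interferon-stimulated and MHC class I genes furthest to the right, with 23 of 31 and 9 of 15.

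The NRF2 list fell across its branches. NFE2L2 itself (chr2:177218667-177392756) was at 113 and 112 CPM in the control and at 91.8, 91.4 and 92.2 CPM in RES (-0.29 ± 0.0349, FDR 2.11e-12). The 3 RES libraries agreed closely and lay below both controls. KEAP1, its inhibitor, did not pass the test (-0.07). NFE2L2 overlaps HNRNPA3 and AGPS on the opposite strand, and the strand setting used in counting was not given in the sources used here.

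The iron genes of the list were lower as well. FTL (chr19:48965309-48966879), the ferritin light chain, was at 1045 and 1079 CPM in the control and 780, 795 and 762 CPM in RES (-0.45 ± 0.0283, FDR 3.26e-34). FTH1, the ferritin heavy chain, was at 3341 and 3444 CPM against 2680, 2723 and 2707 CPM (-0.33 ± 0.0246, FDR 4.92e-20). HMOX1, which frees iron from haem, was at 23.9 and 25.0 CPM against 19.0, 20.4 and 19.2 CPM (-0.32 ± 0.0627, FDR 2.60e-05). TFRC, the transferrin receptor that brings iron into the cell and no member of the list, fell too, from 213 and 222 CPM to 163, 154 and 162 CPM (-0.44 ± 0.0327, FDR 4.83e-31). The ferritin transcripts and TFRC were thus lower in every RES library than in either control, and TFRC is the only uptake gene given here.

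The glutathione and thioredoxin genes fell in part. SLC7A11, the cystine importer that feeds glutathione synthesis, was at 37.5 and 38.6 CPM in the control and 25.1, 27.5 and 24.7 CPM in RES (-0.56 ± 0.0708, FDR 5.56e-13). GCLM, the modifier subunit of the enzyme that makes the glutathione precursor, was at 45.8 and 43.7 CPM against 32.5, 32.1 and 34.0 CPM (-0.45 ± 0.0489, FDR 3.95e-16). The catalytic subunit GCLC, at 18.4 and 16.7 against 17.4, 17.4 and 17.3 CPM, gave -0.02 ± 0.0699 (FDR 0.949), and the RES values lay between those of the controls. TXNRD1, thioredoxin reductase, was at 215 and 210 CPM against 164, 158 and 167 CPM (-0.39 ± 0.0322, FDR 4.91e-24). PRDX1, a peroxiredoxin, fell by 0.17, while thioredoxin itself (TXN, -0.07) did not pass the test.

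Enzymes of the non-oxidative branch of the pentose phosphate pathway were also lower. TKT, transketolase, was at 603 and 600 CPM in the control and 478, 478 and 479 CPM in RES (-0.33 ± 0.0256, FDR 1.87e-23), and TALDO1, transaldolase, fell by 0.26. PGD (-0.06) did not pass. SQSTM1, the autophagy receptor p62, fell by 0.16. A further 4 calls each depended on at least 1 library. AKR1C1 (-1.02), ME1 (-0.25), GSR (-0.18) and OSGIN1 (-0.39) lost their calls, with FDRs of 0.173 for AKR1C1, 0.0796 for GSR and 0.0948 for OSGIN1 without negative control replicate 1 and 0.104 for ME1 without replicate 2. The list had 14 calls without either control library and 16 or 17 without any RES library.

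Directly against the other compounds the NRF2 genes were lower under RES as well. Of the 25 genes, 17 were lower in RES against POG, where 13.7% of all genes were lower and 14.1% higher, and 17 were lower in RES against DEG, where 10.3% were lower and 10.8% higher. None of the 25 was higher in either contrast. Of the same list, POG against the control gave 1 member higher (5.93% of all genes) and 4 lower (8.57%), and DEG against the control gave none higher (3.52%) and 2 lower (6.11%). The contrasts share libraries and are not independent of each other. NQO1 shows the pattern. It was at 86.1, 86.6 and 87.2 CPM in POG and 85.4 and 84.9 CPM in DEG, below which RES lay by a log2 difference of -0.79 ± 0.0351 from POG (FDR 1.52e-97) and -0.77 ± 0.0391 from DEG (FDR 7.99e-72). FTL, TXNRD1, TKT and NFE2L2 were likewise lower in RES than in either compound.

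NRF2 binds the antioxidant response element, whose core was searched as TGACNNNGC on both strands in the 250 bases before each gene's start in the RefSeq promoter table (build GRCh38.p14). This motif was chosen after the calls had been seen. It was present in 3 of the 11 called list members that had an entry (27.3%), in 4 of all 17 members with an entry (23.5%) and in 11.03% of 27305 promoters. Over all genes, 10.8% of promoters of genes called lower, 11.6% of those called higher and 11.9% of those tested held it. The 3 stretches are shown because they belong to genes that fell. Each runs 5′ to 3′ along the gene's own strand with the match in capitals, and the minus strand holds GCLM and ME1. They lie at chr1:93909441-93909479, chr12:104215665-104215703 and chr6:83431165-83431203.
GCLM: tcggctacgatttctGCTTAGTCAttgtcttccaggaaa
TXNRD1: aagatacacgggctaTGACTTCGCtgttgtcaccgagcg
ME1: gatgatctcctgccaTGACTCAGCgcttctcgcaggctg
In GCLM the match reads along the opposite strand. A match describes letters and does not show that the factor was bound.

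The interferon-stimulated genes rose together by small steps. Among effectors, IFI27, a mitochondrial protein of the interferon response, was at 192 and 202 CPM in the control and 257, 247 and 249 CPM in RES (0.35 ± 0.0384, FDR 5.16e-14). RSAD2 (viperin), an enzyme that makes a chain-terminating nucleotide, was at 32.5 and 33.3 CPM against 42.1, 42.0 and 41.3 CPM (0.34 ± 0.0525, FDR 7.51e-09). IFIT2, which binds foreign RNA, was at 126 and 122 CPM against 148, 153 and 155 CPM (0.30 ± 0.0378, FDR 3.59e-11). In all 3 the RES libraries lay above both controls, and only 4 of all 1906 called genes had overlapping groups. OAS2, a sensor of double-stranded RNA, rose by 0.30, IFI6 by 0.28, IFI44 and IFIT1 by 0.27, and the dynamin-like GTPase MX1 by 0.20. The sensors RIGI and IFIH1 rose by 0.24 and 0.23, and USP18, which damps the pathway, by 0.32.

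The transcription factors of the pathway gave other values. IRF9, the DNA-binding partner of STAT2, was at 13.7 and 11.9 CPM in the control and 9.58, 10.6 and 8.26 CPM in RES (-0.43 ± 0.0947, FDR 1.89e-04), but it did not pass without negative control replicate 1 (FDR 0.0845). IRF7 (0.06), OASL (0.04), IRF1 (-0.02), GBP1 (0.02), GBP2 (-0.06) and IFIT5 (0.14) did not pass the test, and CXCL10 was below the filter on low counts. STAT2 (0.09) lost its call whichever library was left out (FDR 0.0620 to 0.268). ISG15 (0.16) lost it without negative control replicate 1, and ISG20 (0.17) and XAF1 (0.21) lost theirs without replicate 2. IFI35 (0.15) lost its call when any single library except RES replicate 3 was left out, and with no filter on low counts. With any library left out, 19 to 22 members were called higher. The ligand IFNB1 had 9 and 10 reads in the control libraries and 4, 17 and 6 in RES, and IFNE had 78 and 85 reads against 91, 68 and 108. The receptor genes IFNAR1 (-0.05) and IFNAR2 (0.06) did not pass the test.

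The contrast with the other compounds was wider than that with the control. Of the 31 genes, 28 were higher and 1 lower in RES than in POG, and 30 higher and 1 lower in RES than in DEG. POG against the control gave 21 members lower and none higher, and DEG against the control gave 26 lower and none higher. These comparisons share the control or the RES libraries. IFIT2 was at 72.1, 65.6 and 69.1 CPM in POG and at 75.9 and 77.7 CPM in DEG, so RES exceeded them by 1.14 ± 0.0347 (FDR 3.01e-208) and 0.99 ± 0.0396 (FDR 1.49e-118). RSAD2 was at 16.8, 16.7 and 16.8 CPM in POG and 18.9 and 20.6 CPM in DEG, a difference from RES of 1.32 and 1.08. BST2 differed in form. It was at 90.8 to 98.0 CPM in POG and 96.9 and 94.0 CPM in DEG, close to the control's 98.8 and 98.0 CPM, and the RES libraries stood above all of these.

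**Figure D4:**
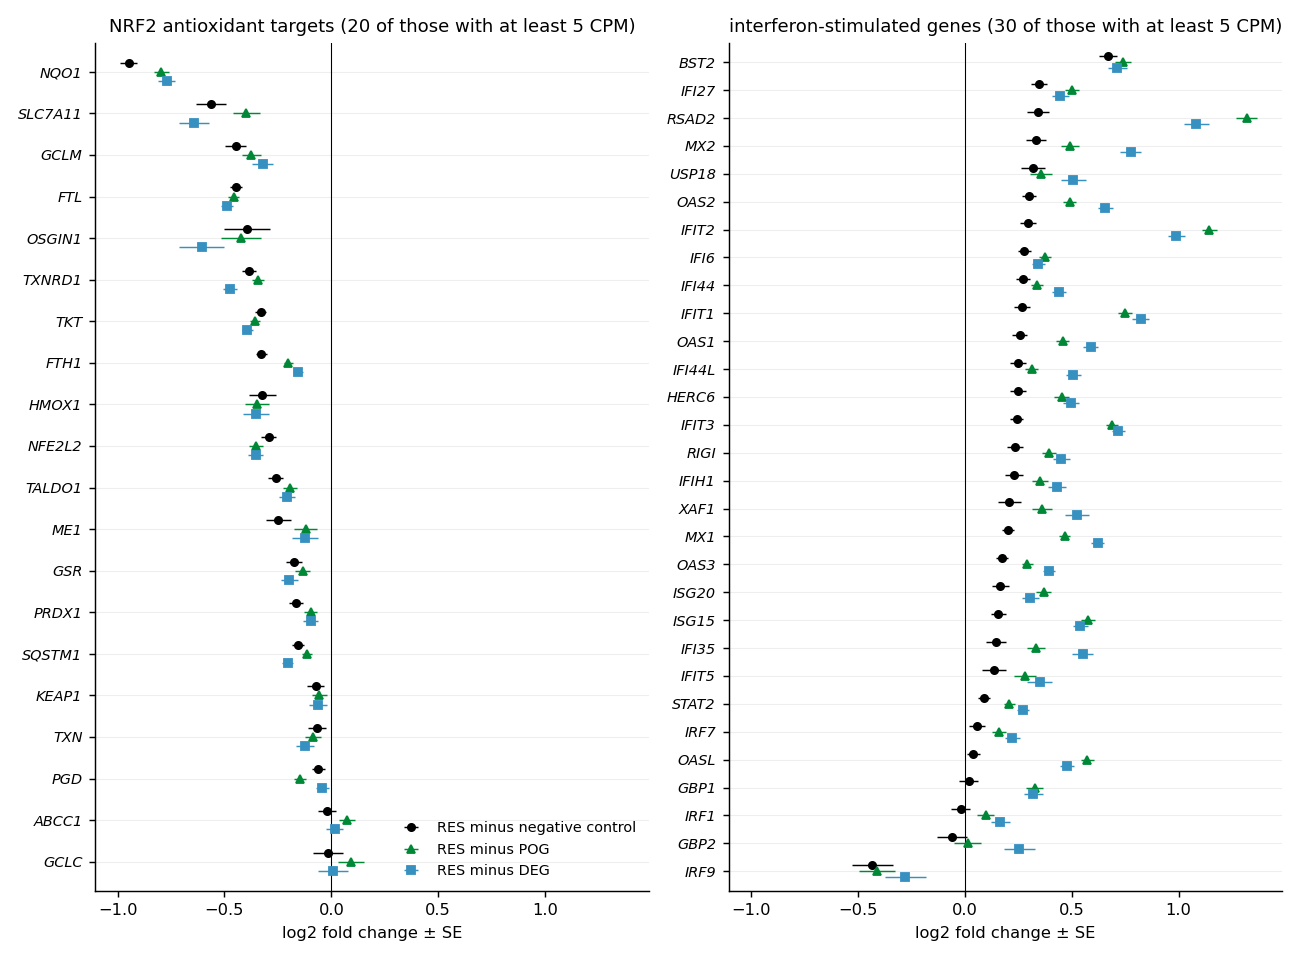
Log2 fold change with its standard error for members of at least 5 CPM of 2 lists, 20 NRF2 targets and 30 interferon-stimulated genes, in RES minus control, RES minus POG and RES minus DEG. The NRF2 genes lie mostly below 0 in all 3 contrasts, and the interferon-stimulated genes lie further above 0 against the compounds than against the control.

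The interferon-stimulated response element was searched as GAAANNGAAA on both strands of the same 250 bases, again a motif chosen after the calls. It was present in 11 of 20 called list members with an entry (55.0%) and in 13 of all 23 (56.5%), against 3.07% of all promoters. Over all genes, 4.91% of promoters of genes called higher and 2.18% of those called lower held it. Of the matches, 5 are shown for genes that rose, at chr10:89392505-89392544, chr14:94110626-94110665, chr1:78620360-78620399, chr19:17405730-17405769 and chr1:1013375-1013414, each along the gene's strand with 1 match in capitals. Each of these 5 promoters held 2 matches, and in IFIT1, IFI27, BST2 and ISG15 the other lies in the printed stretch in lower case, overlapping the capitals in BST2 and ISG15.
IFIT1: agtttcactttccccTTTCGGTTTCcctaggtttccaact
IFI27: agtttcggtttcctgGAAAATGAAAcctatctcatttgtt
IFI44L: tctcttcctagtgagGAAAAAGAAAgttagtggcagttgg
BST2: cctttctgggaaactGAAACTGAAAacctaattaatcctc
ISG15: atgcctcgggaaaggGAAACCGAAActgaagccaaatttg
In IFIT1 the match in capitals reads on the opposite strand. Of the other motifs searched, the CCAAT box was in 40.02% of promoters of genes called lower against 34.5% of those tested. GCGTG, the core of the aryl hydrocarbon response element, was in 48.2% against 44.4%. AP-1 sites (TGANTCA) were in 6.97% of promoters of genes called higher, 3.39% of those called lower and 4.25% of those tested. TGACGTC, the cyclic AMP response element, was in 5.07%, 4.47% and 4.95% of the same groups, and TCACNCC, a sterol response element, in 15.5%, 12.9% and 13.6%.

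The MHC class I list, which presents peptides to T cells, also moved up, with 9 of 15 members higher and 2 lower (median 0.11). PSMB9, an immunoproteasome subunit, was at 52.1 and 51.6 CPM in the control and 59.0, 59.4 and 61.8 CPM in RES (0.21 ± 0.0419, FDR 6.97e-05). ERAP2, a peptide-trimming enzyme, also rose by 0.21 (FDR 2.27e-04). HLA-B (0.16) and B2M (0.15) were called but not without negative control replicate 1 (FDR 0.0575 and 0.0531). That omission gave 3 calls higher, and leaving out negative control replicate 2 or RES replicate 3 gave 6. Against POG 10 members were higher and 1 lower, and against DEG 6 were higher and none lower.

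Inflammatory cytokines and chemokines split. Of 24 tested, 5 were higher and 8 lower (median -0.08). CCL2, the main monocyte chemokine, was at 288 and 287 CPM in the control and 240, 241 and 229 CPM in RES (-0.28 ± 0.0322, FDR 2.00e-12). CXCL12, which holds blood stem cells in bone marrow, was at 22.8 and 22.6 CPM against 15.8, 15.6 and 16.9 CPM (-0.49 ± 0.0659, FDR 2.31e-11), and the neutrophil chemokine CXCL6 fell by 0.24. The T-cell chemokine CCL5 (0.26), IL32 (0.46) and IL18 (0.94) rose, the last at 1.26 and 2.43 CPM on average and not without negative control replicate 2 (FDR 0.0656). IL6, a pleiotropic cytokine that drives acute-phase responses, was at 973 and 996 CPM against 1023, 1012 and 1019 CPM (0.05 ± 0.0274, FDR 0.422), a difference the test did not separate. The count of rises was 3 without negative control replicate 1 or RES replicate 3 and 2 without negative control replicate 2. Directly, 17 of the 24 were higher and 3 lower in RES than in POG, and 17 higher and 1 lower in RES than in DEG. Against the shared control, POG had 2 higher and 15 lower, and DEG 1 higher and 15 lower. IL6 was at 583 to 605 CPM in POG and 621 and 628 CPM in DEG, so RES exceeded them by 0.77 ± 0.0247 (FDR 3.00e-140) and 0.71 ± 0.0281 (FDR 3.88e-89).

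In the prostaglandin list PTGES rose while the other called members fell. The cyclooxygenases that make the common precursor fell. PTGS2 was at 151 and 153 CPM in the control and 118, 117 and 113 CPM in RES (-0.39 ± 0.0405, FDR 2.39e-16), and PTGS1 was at 13.7 and 14.3 CPM against 11.1, 11.2 and 10.1 CPM (-0.37 ± 0.0796, FDR 1.69e-04). PTGES, the inducible terminal synthase given above, rose, while PTGES2 (-0.17) and PTGES3 (-0.15) fell, the latter not without negative control replicate 2 (FDR 0.0621). In all, 1 of 10 members rose and 4 fell (median -0.07). PTGES was at 7.34 to 7.69 CPM in POG and at 9.07 and 9.80 CPM in DEG, both below the control, and RES exceeded them by 1.499 ± 0.0623 (FDR 1.34e-120) and 1.17 ± 0.0704 (FDR 1.30e-53). PTGS2, at 118 to 128 CPM in POG and 120 and 121 CPM in DEG, did not differ from RES by the test (-0.09 ± 0.0366, FDR 0.0754, and -0.05 ± 0.0413, FDR 0.489). The NF-kB list had 4 of 16 members higher and 1 lower (median 0.08). The adhesion molecule ICAM1 rose by 0.18 (FDR 2.44e-06), whereas NFKBIA (-0.14), BCL3 (0.15) and TNFAIP2 (0.19) lost their calls without negative control replicate 1 (FDR 0.227, 0.0883 and 0.213), an omission with 1 rise and no fall.

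Among collagen chains, 12 of 23 tested were lower and 2 higher in RES (median -0.13). The falls beside COL3A1 covered the fibril-associated chain COL12A1, at 80.1 and 81.4 CPM in the control and 57.3, 55.3 and 61.5 CPM in RES (-0.48 ± 0.0528, FDR 1.64e-15). COL6A1, a chain of the beaded-filament collagen VI, was at 3893 and 3868 CPM against 3153, 3255 and 3260 CPM (-0.27 ± 0.0211, FDR 6.19e-16). COL5A3 fell by 0.48, COL6A2 by 0.20, the basement membrane chain COL4A1 by 0.19 and COL1A2 by 0.16. COL1A1, the most abundant chain, gave -0.07 ± 0.0216 (FDR 0.115) and did not pass. It was called with the same change by the quasi-likelihood test (FDR 0.0305), by DESeq2 (FDR 0.0294), and with dispersions from RES and control alone (FDR 0.0125) or estimated without the positive control (FDR 0.00210). COL27A1 rose by 0.32. COL11A1 (0.68) was called but lost the call without negative control replicate 2 (FDR 0.189). The falls numbered 8 without that library and 11 or 12 without any other. In RES against POG 10 chains were higher and 5 lower, and against DEG 8 higher and 5 lower. Each compound also lowered chains against the shared control, 14 of 23 for POG and 9 for DEG, with none higher. COL3A1 had a like level in the compounds, at 1166 to 1188 CPM in POG and 1147 and 1160 CPM in DEG, with a difference from RES of 0.00 ± 0.0212 and 0.03 ± 0.0237 (FDR 0.951 and 0.578). COL6A1, at 3899 to 4001 CPM in POG and 3777 and 3797 CPM in DEG, was lower in RES than in both (-0.29 and -0.23).

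The matrix protease list had 5 of 27 members lower and 2 higher (median -0.02), with 3 lower without negative control replicate 2. Besides MMP3 and MMP1, the membrane-anchored ADAM12 fell by 0.33 (FDR 2.83e-08) and the membrane collagenase MMP14 rose by 0.13 (FDR 5.30e-04). MMP3 lay at 4.26 to 5.44 CPM in POG and 4.96 and 4.45 CPM in DEG, and the test separated RES from neither (0.14 ± 0.102, FDR 0.328, and 0.23 ± 0.119, FDR 0.181). In the TGF-beta and BMP list 9 of 33 fell and 2 rose (median -0.06), with 5 falls without negative control replicate 2 and no rise without either control library. INHBA, the activin A subunit, was at 648 and 649 CPM in the control and 495, 491 and 492 CPM in RES (-0.40 ± 0.0268, FDR 4.83e-31). LTBP1, which anchors latent TGF-beta, fell by 0.22, ID3, a BMP-induced repressor, by 0.28, and TGFBI by 0.16. The Notch list had 3 of 15 lower and 1 higher (median -0.03). HES1, a Notch-induced repressor, fell by 0.20 beside NOTCH3. The ligand gene JAG2 (0.51) lost its call without negative control replicate 2. NOTCH1 (-0.12) lost its call when any single library except RES replicate 3 was left out. It was also lost under plain library totals, with no filter on low counts and with offsets for GC content. Of 29 Wnt genes 4 fell (13.8%, against 6.21% of all genes) and 1 rose (3.45%, against 4.94%), with a median of -0.02. The secreted Wnt inactivator NOTUM fell by 0.93 at a low level (4.19 and 2.20 CPM on average), WNT5A by 0.25 and the receptor FZD8 by 0.32, while the receptor FZD6 rose by 0.24.

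None of the 17 tested osteoblast transcription factors and bone matrix genes passed in either direction (median -0.06), and 9 more were below the filter. COL1A2, an osteoblast marker counted with the collagens, was called lower, as given above. RUNX2, the master regulator of osteoblasts, averaged 47.1 CPM in the control and 45.6 CPM in RES (-0.05 ± 0.0511, FDR 0.670), and DLX5 gave 0.21 ± 0.313 (FDR 0.781). At an unadjusted p under 0.05 in edgeR's exact test 2 of the 17 were higher and 2 lower, and neither edgeR's quasi-likelihood test nor DESeq2 called any. With dispersions from RES and control alone, with dispersions estimated without the positive control, or with GC offsets, 1 member, POSTN (-0.12), was called lower. Of 16 signals to osteoclasts 2 rose and 4 fell (median 0.04). SEMA3A, a semaphorin that restrains osteoclasts, rose by 0.31 (FDR 1.19e-06), and WNT5A, CCL2 and CXCL12 fell as given above. Of the RANKL pair, TNFSF11 was almost unexpressed (0.398 and 0.411 CPM on average, FDR 1.00). TNFRSF11B averaged 39.1 and 34.6 CPM (-0.18 ± 0.0498, FDR 0.00905) but lost the call without negative control replicate 2 (FDR 0.207).

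In the apoptosis list 7 of 35 were higher, against 4.94% of all genes, and none lower (median 0.04), with 3 higher without negative control replicate 1, 4 without RES replicate 1 and 11 under plain library totals. The TRAIL receptor gene TNFRSF10A was at 16.2 and 15.5 CPM in the control and 20.3, 19.6 and 20.9 CPM in RES (0.35 ± 0.0691, FDR 2.08e-05), and the decoy receptor gene TNFRSF10D rose by 0.26 (FDR 3.73e-05). BCL2 (0.00, FDR 1.00), BCL2A1 (0.31, FDR 0.0971), BCL2L11 (-0.07, FDR 0.538), BAX (-0.05, FDR 0.513), BAD (0.11, FDR 0.224) and CASP9 (0.04, FDR 0.863) were not called. BCL2L1 (0.12, FDR 0.0304) lost its call when any single library except RES replicate 1 was left out, and with no filter on low counts. Of 26 p53 targets 4 rose (15.4%) and 1 fell (median 0.01), with 2 rises without negative control replicate 1. PLK2, a stress-induced kinase, was at 13.6 and 14.7 CPM against 20.2, 19.4 and 19.0 CPM (0.46 ± 0.0667, FDR 1.35e-09), and GADD45A, a growth-arrest gene, rose by 0.38.

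Cell cycle counts depended on single libraries and on scaling. Of 33 mitotic genes 6 fell and none rose (median -0.04), but 1 was called without either control library and 3 under plain library totals. MKI67, the proliferation marker, was at 892 and 869 CPM in the control and 762, 765 and 786 CPM in RES (-0.19 ± 0.0400, FDR 7.95e-04), and was not called without negative control replicate 1 (FDR 0.0695). Directly, 23 mitotic genes were lower and 1 higher in RES than in POG, and 19 lower and none higher in RES than in DEG. Against the shared control, POG had 16 mitotic genes higher and none lower, and DEG 9 higher and none lower. The median against the control was 0.11 for POG and 0.08 for DEG. Of 34 replication and G1/S genes 4 rose (11.8%, against 4.94% of all genes) and 1 fell (2.94%, against 6.21%), with a median of 0.05. The rises numbered 1 or 2 when a RES library was left out and 10 under plain library totals. Of 13 D cyclin and CDK inhibitor genes 2 rose and 4 fell (median -0.01), with 1 or 2 falls without any single library. CDKN2C, an inhibitor of CDK4 and CDK6, fell by 0.21 (FDR 1.47e-05), and CCND1, cyclin D1, was at 0.14, not called without negative control replicate 1 (FDR 0.0603).

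Lists tied to known targets of resveratrol were counted too. Of 18 sirtuin and PGC-1 axis genes 1 rose and 1 fell (median -0.01), a called share of 11.1% against 11.2% of all genes tested. The deacetylase gene SIRT1 averaged 43.4 CPM in the control and 45.4 CPM in RES (0.07 ± 0.04995, FDR 0.504), and none of the 7 sirtuin genes passed. NAMPT, which makes the NAD precursor sirtuins depend on, fell by 0.17 (FDR 2.02e-06), and PPARD rose by 0.21. Among aryl hydrocarbon receptor targets 4 of 10 fell, against 6.21% of all genes, and none rose (median -0.06). CYP1B1, a cytochrome P450 of that pathway, was at 50.98 and 52.7 CPM in the control and 38.7, 39.8 and 36.9 CPM in RES (-0.43 ± 0.0452, FDR 3.66e-17). NQO1 and NFE2L2 are in this list too. AHRR (-0.12) lost its call when any single library except RES replicate 2 was left out. It was also lost under plain library totals, with no filter on low counts and with GC offsets. The estrogen list had 1 of 10 higher (against 4.94% of all genes) and 2 lower (median 0.15), namely IGFBP4 (-0.23) and CA12 (-0.21). Its rise, NRIP1 (0.18), was not called by the quasi-likelihood test (FDR 0.0588), by DESeq2 (FDR 0.0670) or with GC offsets. It also lost the call without negative control replicate 1 and without RES replicate 1 or 3. Of 17 cyclic AMP targets 2 rose, AREG and PDE4B, and 3 fell (median 0.01), so that 29.4% were called against 11.2% of all genes. The nuclear receptor gene NR4A2 fell by 0.39 (FDR 6.09e-12) and the clock gene PER1 by 0.20. PTHLH (-0.33) lost its call without negative control replicate 2 (FDR 0.146), and the rises numbered 1 without either control library or RES replicate 3.

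Immediate early and MAPK feedback genes had 7 of 26 lower and none higher (median -0.06). The count was 4 without negative control replicate 1, 3 without replicate 2 and 4 under plain library totals. EGR1, an early growth response factor, was at 96.8 and 94.8 CPM in the control and 81.1, 84.7 and 80.01 CPM in RES (-0.23 ± 0.0389, FDR 4.48e-06). It was at 155 to 161 CPM in POG and at 133 and 124 CPM in DEG, so RES was lower by 0.94 ± 0.0339 (FDR 3.66e-143) and 0.65 ± 0.0379 (FDR 1.30e-53). EGR1 was on the opposite side of the control in the other compounds. JUN fell by 0.23 and IER3 by 0.18. Of 23 actin, SRF and YAP-TEAD targets 3 fell and 2 rose (median 0.02), with no rise without negative control replicate 1. The matricellular THBS1 fell by 0.38 (FDR 8.19e-18) and the actin gene ACTG1 by 0.17. FLNA (-0.13) and ANKRD1 (0.58) lost their calls without either control library. FLNA also lost it without RES replicate 1 and under plain library totals, and ANKRD1 without RES replicate 3.

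Among metabolic lists, glycolysis and hypoxia targets had 12 of 40 lower and 2 higher (median -0.07), with 8 falls without negative control replicate 2 and no rise without replicate 1. NDRG1, a hypoxia-induced gene, was at 169 and 172 CPM in the control and 128, 127 and 129 CPM in RES (-0.41 ± 0.0323, FDR 6.60e-28). HK2, the inducible hexokinase, fell by 0.38 and VEGFA, the angiogenic factor, by 0.21. HIF1AN, which restrains HIF-1, was not called (-0.05, FDR 0.618). The 13 mitochondrially encoded genes gave no call in the exact test (median -0.04), with 1 higher and 3 lower at an unadjusted p under 0.05, 1 call in the quasi-likelihood test and none in DESeq2. Of the 67 nuclear respiratory chain genes 1 fell (median 0.01), NDUFA11. The quasi-likelihood test (FDR 0.0583) and DESeq2 (FDR 0.0701) did not call it. Its call was also lost under plain library totals, with no filter on low counts, with GC offsets and when any single library except RES replicate 2 was left out. Of 24 cholesterol genes 4 rose and 3 fell (median 0.05), with 1 rise without negative control replicate 1 and 7 under plain library totals. MVD, an enzyme of the mevalonate pathway, rose by 0.23, and the regulator SREBF2 fell by 0.17. Of 11 fatty acid genes 2 rose and 3 fell (median -0.03), led by ACSS2, which makes acetyl-CoA from acetate (0.31), and the desaturase FADS1 (-0.23), with 1 rise whichever library was left out. Of 9 LXR and lipid efflux genes 2 rose and 1 fell (median -0.05). APOE rose by 0.39 (FDR 1.32e-05), NPC1 (0.14) was lost without negative control replicate 1 (FDR 0.0646) and LPCAT3 (-0.25) without replicate 2 (FDR 0.0575).

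Among the stress and protein homeostasis lists, of 18 heat shock genes 4 fell and none rose (median -0.06). HSPA1A, the inducible HSP70, was at 90.8 and 91.3 CPM in the control and 67.1, 67.6 and 72.8 CPM in RES (-0.40 ± 0.0409, FDR 2.14e-17). Its near-identical neighbour HSPA1B fell by 0.31 and the 2 share reads, so their split is uncertain. HSPE1, the mitochondrial cochaperonin, fell by 0.39. HSP90AA1 (-0.12) was lost without negative control replicate 1 (FDR 0.0922). Of 77 ribosomal protein genes 13 fell and none rose (median -0.06), but 4 or 5 were called without either control library or without RES replicate 2 or 3, and 4 under plain library totals. RPSA fell by 0.20 and RPL7 by 0.17, genes with many processed copies. Directly, 37 ribosomal protein genes were lower in RES than in POG and 45 lower than in DEG, with none higher. Of 27 ATF4 targets 4 fell and 1 rose (median 0.0030), with 2 falls and no rise without negative control replicate 2 and with 3 falls and 3 rises under plain library totals. SLC7A11, named above, and SHMT2 (-0.18) fell. Of 22 unfolded protein response genes 3 fell (median -0.05), and none was called without negative control replicate 2 or under plain library totals. Of 33 lysosome and autophagy genes 6 fell and 2 rose (median -0.01), with 2 falls without negative control replicate 2 and with 4 falls and 3 rises under plain library totals. The protease CTSB fell by 0.16 and the sialidase NEU1 rose by 0.24.

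In the clock list 4 of 17 fell and 2 rose (median 0.02). BHLHE40, a repressor of the clock, rose by 0.33 (FDR 1.40e-16), and the falls numbered 1 without negative control replicate 1 and 2 without replicate 2. NPAS2 (-0.13) and NFIL3 (-0.23) were those lost without replicate 1 (FDR 0.118 and 0.0700) together with another member. Of 13 glucocorticoid-responsive genes 2 rose and 2 fell (median 0.06). TSC22D3, a classical glucocorticoid target, rose by 0.43 (FDR 9.24e-07). KLF9 (0.17) lost its call without either control library and without RES replicate 1 or 2. Of 9 metallothionein and zinc genes 1 rose (median 0.12), the exporter SLC30A1 (0.19), which was lost without negative control replicate 2 (FDR 0.302).

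Across the 162 tested genes named by the rule, which were mostly picked for their change against the control, 120 differed between RES and POG and 109 between RES and DEG, where the background of calls is 14.1% higher and 13.7% lower for POG and 10.8% and 10.3% for DEG. The rule used the RES libraries that enter these contrasts, so these counts are a description. The compounds differ in molecular weight, and equal mass is not equal molarity. The genes fell into recognisable patterns of levels. In a first pattern RES stood with both compounds. SERPINE2 was at 375 to 376 CPM in POG and 384 and 392 CPM in DEG, a difference from RES of 0.01 ± 0.0236 and -0.04 ± 0.0265 (FDR 0.934 and 0.400). ABCE1 was at 96.0 to 99.4 CPM in POG and 95.3 and 100.2 CPM in DEG (-0.07 ± 0.0338 and -0.06 ± 0.0381, FDR 0.168 and 0.284).

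In a second pattern the compounds moved the same way as RES but less. NOTCH3 was at 643 to 669 CPM in POG and 712 and 696 CPM in DEG, above RES by a log2 difference, RES minus compound, of -0.31 ± 0.0249 (FDR 2.53e-22) and -0.41 ± 0.0276 (FDR 4.93e-32). TIE1 was at 7.92 to 8.80 CPM in POG and 7.72 and 8.09 CPM in DEG, with RES higher by 0.34 and 0.41. In another pattern RES moved away from the control and the test did not separate the compounds from it. PIR was at 13.1 to 13.9 CPM in POG and 13.2 and 12.1 CPM in DEG, and RES was lower by 0.88 and 0.79. HSPA1A and FTL belong here, with RES lower than POG by 0.40 and 0.46. In the last pattern the compounds moved in the opposite direction from RES, as for PTGES, IFIT2, RSAD2 and LRRC17. LRRC17 was at 11.4 to 11.9 CPM in POG and 10.9 and 9.31 CPM in DEG, below the control, and RES exceeded them by 0.99 ± 0.0620 (FDR 7.75e-56) and 1.19 ± 0.0738 (FDR 9.49e-55).

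**Figure D5:**
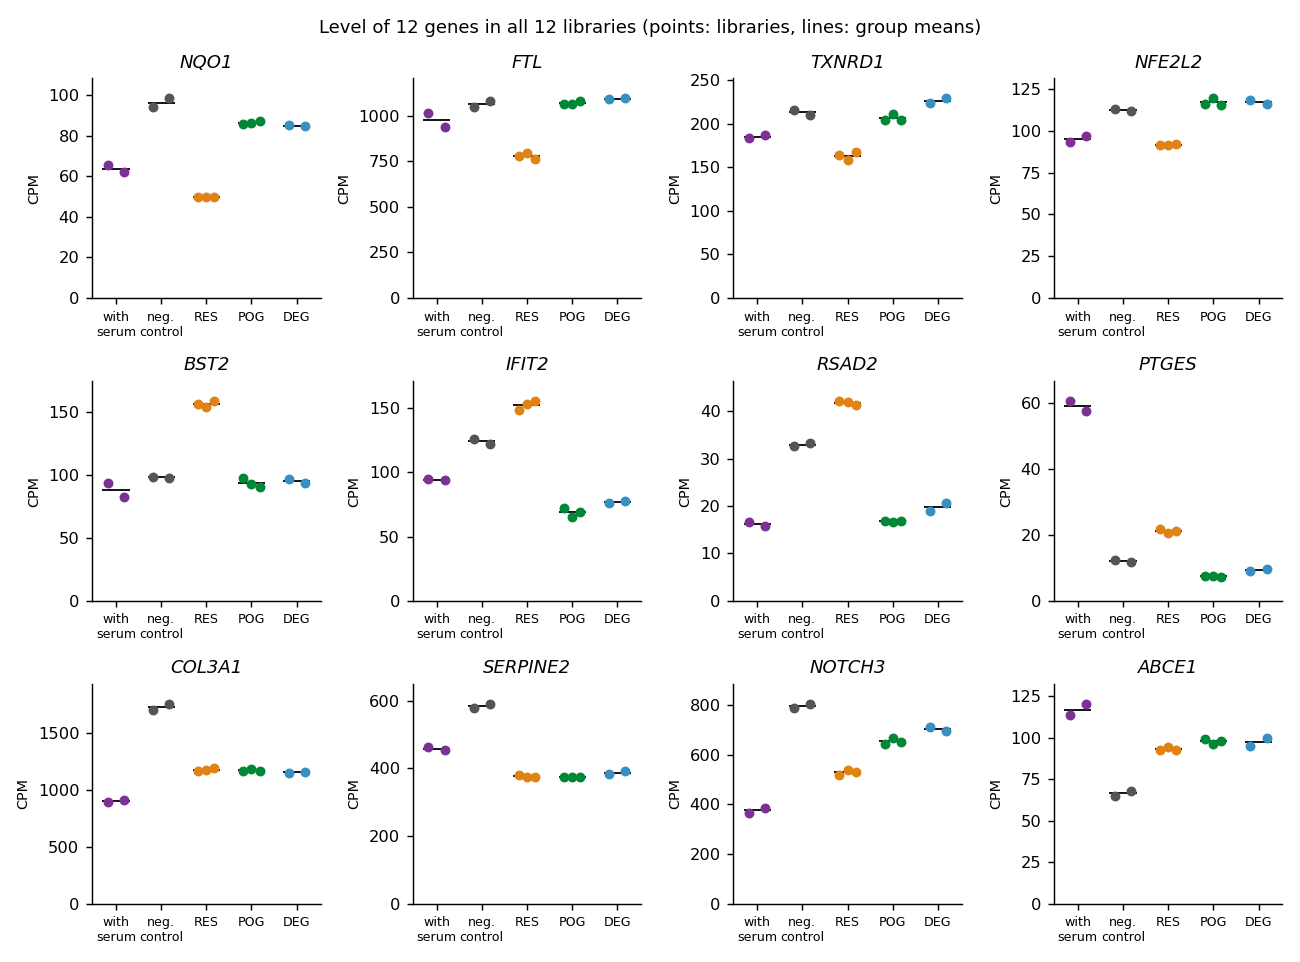
Level in CPM of 12 genes in all 12 libraries, grouped as the serum-fed positive control, negative control, RES, POG and DEG, with a point for each library and a line at each group mean. SERPINE2, COL3A1 and ABCE1 have RES level with POG and DEG, NQO1, FTL and TXNRD1 have RES below the other serum-free groups, and IFIT2, RSAD2 and PTGES have RES above the negative control while POG and DEG lie below it.

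The called genes differed in makeup from the genes tested. Protein-coding genes were 94.3% of those called higher and 95.4% of those called lower, against 82.1% of all tested. The median control level was 26.7 CPM for genes called higher, 71.7 CPM for those called lower and 17.3 CPM over all. The median GC content of the transcript was 47.5% for genes called higher, 54.0% for those called lower and 48.4% over all. From the lowest to the highest of 5 equal bins of genes by GC content, the share called lower went from 2.80% to 10.1% and the median log2 fold change from 0.024 to -0.023. The part of GC content in these calls was not tested beyond a fit with offsets for it, which called 766 genes higher and 943 lower and left 23 interferon-stimulated genes higher and 17 NRF2 targets lower.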

How the data were processed

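The deposited table held raw read counts per Ensembl gene for 12 libraries. Per the labels, polyA RNA was made into strand-selecting libraries (Universal Plus mRNA-Seq) and sequenced as pairs on a NovaSeq. Per the study's methods the authors aligned with STAR, with BWA MEM also named, to hg38 and counted with featureCounts. Versions, annotation release and strand setting were not given in the sources used here. Symbols and positions came from the reference annotation for 43214 genes. Counts were tested with edgeR 4.0.16 (exactTest, TMM, filterByExpr, tagwise dispersions over all 12 libraries, common biological variation 3.21%, Benjamini-Hochberg) in R 4.3.3. Standard errors came from the quasi-likelihood fit. CPM used TMM-scaled totals, except in the summed marker levels, which used plain library totals. The steps were tested on simulated data. Alternatives were the quasi-likelihood test, DESeq2 1.42.0 and its size factors, plain totals, other filters, dispersions and thresholds, each library left out and, chosen after seeing the data, GC offsets.

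Members and lists were chosen with earlier results of these data known. Named genes were the 12 largest rises and falls among called genes of at least 5 CPM without overlap, the 6 smallest p each way, up to 4 called members per list and genes the study discusses, 163 in all. A further 58 were chosen after their values were seen, as were single list members named only with a log2 value. Depth limits precision, and with 2 control libraries the spread is borrowed from all groups. Some genes of the lists were counted but are not reported here by name.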

Additional observations from a re-analysis of the deposited data

How the results depend on the processing

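The 1906 calls (844 higher, 1062 lower) came to 1673 with the quasi-likelihood test, 1603 with DESeq2, 1910 with its size factors, 1930 with plain library totals, 1500 with no filter, 1969 at 1 CPM and 1709 with GC offsets. They moved further to 2938 (1276 higher, 1662 lower) with dispersions without the positive control, 1124 (483 and 641) at an FDR under 0.01 and 72 (50 and 22) with a log2 change of at least 1. With dispersions from the 5 libraries alone they were 2714. Plain totals left 694 lower and 1236 higher. Without 1 library the calls ranged from 905 to 1462, the rises from 388 to 663 and the falls from 516 to 799. For genes named by the rule, the quasi-likelihood test gave 120 calls against POG and 108 against DEG. Of the 221 named genes, 44 lost their call without each control library and 15 to 20 without each RES library. Of 14 list counts of at least 5, 9 moved by over 1.5 times without 1 library and 4 under plain totals. Of 48 counts of 1 to 4, 33 moved that far without 1 library. Signs turned only in genes that were not called, and the cause was not tested. With 1 library left out, BCL2 ranged from -0.075 to 0.047, BCL2L11 from -0.13 to 0.0066, CASP9 from -0.0084 to 0.096, TNFSF11 from -0.59 to 1.21, HIF1AN from -0.093 to 0.0026, RUNX2 from -0.12 to 0.027, DLX5 from -0.041 to 0.47, IFNB1 from -1.09 to 0.088, IFNE from -0.22 to 0.10 and GCLC from -0.085 to 0.058. BCL2 was at -0.010 with GC offsets and GCLC at 0.012 under plain totals. DESeq2 gave AKR1C1 no adjusted p and it is left out there. No paired analysis was possible because the replicate numbers follow accession order only and pair no samples. With 2 control libraries, omitting either leaves a lone control assumed to vary like the other groups.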
